A study of Homo sapiens with 32 samples.

Results

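Killer cell receptors were measured by RNA sequencing in 4 human T-cell lines treated with romidepsin, azacitidine or both. The set was 10 genes chosen by symbol: KIR3DL2, KIR3DL1 and KIR2DL4 of the killer cell immunoglobulin-like receptors, KLRB1, KLRC1, KLRD1, KLRG1 and KLRK1 of the lectin-like receptors, and CD244 and CD160. All 10 were found among the 25559 symbols of each count table. Of these, 5 passed the filter on low counts (KIR3DL2, KLRB1, KLRG1, CD244 and CD160) and were tested together with 17801 genes in all. KIR3DL2 passed through the 8 H9 libraries alone and KLRB1 through 5 PF382 libraries alone, so no test of their level between lines is given. The other 5 members (KIR3DL1, KIR2DL4, KLRC1, KLRD1 and KLRK1) had 2 counts or fewer in every library and are given as counts.

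The lines differ in origin: cutaneous T-cell lymphoma for H9 and HH, adult T-cell leukemia for TLOm1, and T-cell acute lymphoblastic leukemia for PF382. After 96 hours in culture each line gave 8 libraries, namely 4 without romidepsin (no azacitidine or 1 of 3 doses) and 4 with it. Azacitidine (a cytidine analogue that traps DNA methyltransferases, added every 24 hours) was used at 50, 125 and 250 nM in H9 and HH and at 125, 250 and 500 nM in TLOm1 and PF382. Romidepsin (an inhibitor of histone deacetylases, added once at the start) was given at 1.25 nM to PF382 and at 1 nM to TLOm1 and H9, whereas the HH titles give 1 nM for romidepsin alone and 1.25 nM for the combinations. There was 1 library per line and treatment, so in comparisons over the lines the 4 lines were the replicates of a treatment. For a drug effect within 1 line, libraries of different dose took the place of replicates, with no repeat culture. All p-values measure the spread among these libraries. Each disease label rests on 1 or 2 established lines. In bulk RNA from a culture, fewer cells expressing a gene and less of its RNA per cell cannot be told apart.

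Killer cell receptors are known from natural killer cells and cytotoxic T cells, where they balance activation against inhibition. Many inhibitory receptors carry tyrosine motifs that recruit phosphatases. Many activating receptors lack them and pair with small signalling adaptors such as TYROBP (DAP12) and HCST (DAP10). KIR2DL4, CD244 and CD160 do not follow this division, as described with each. The killer cell immunoglobulin-like receptors are switched on clonally, and in cells that do not use a given gene its promoter is methylated. KIR3DL2 is also known as a surface marker of malignant T cells in Sezary syndrome, a leukemic form of cutaneous T-cell lymphoma.

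Because azacitidine acts on DNA methylation, the 250 bases upstream of the transcription start are shown for 5 members, from RefSeq on GRCh38.p14, with each CpG dinucleotide, the site of methylation, in capitals. They are the reference sequence and not that of these lines. KIR3DL2 (chr19:54850193-54850442, plus strand) and KIR3DL1 (chr19:54816218-54816467, plus strand) are shown as a near-identical pair. KLRG1 (chr12:8949794-8950043, plus strand, the first of 2 listed starts), CD160 (chr1:145719249-145719498, plus strand) and CD244 (chr1:160862888-160863137, minus strand) are shown as the members whose drug effects passed a test.
KIR3DL2: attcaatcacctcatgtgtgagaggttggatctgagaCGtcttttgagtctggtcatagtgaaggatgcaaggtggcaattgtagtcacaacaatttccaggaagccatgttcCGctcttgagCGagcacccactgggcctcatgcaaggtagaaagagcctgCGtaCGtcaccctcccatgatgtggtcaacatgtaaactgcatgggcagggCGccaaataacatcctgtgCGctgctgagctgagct
KIR3DL1: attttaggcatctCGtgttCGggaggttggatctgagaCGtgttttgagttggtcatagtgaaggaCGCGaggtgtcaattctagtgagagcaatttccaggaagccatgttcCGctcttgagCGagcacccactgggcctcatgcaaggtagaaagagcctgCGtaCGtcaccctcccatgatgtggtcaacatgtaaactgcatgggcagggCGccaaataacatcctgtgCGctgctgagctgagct
KLRG1: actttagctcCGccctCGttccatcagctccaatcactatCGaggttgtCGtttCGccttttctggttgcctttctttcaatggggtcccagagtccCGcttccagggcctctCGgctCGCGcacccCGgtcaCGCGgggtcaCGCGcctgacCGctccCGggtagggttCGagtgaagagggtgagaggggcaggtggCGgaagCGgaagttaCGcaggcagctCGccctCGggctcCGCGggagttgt
CD160: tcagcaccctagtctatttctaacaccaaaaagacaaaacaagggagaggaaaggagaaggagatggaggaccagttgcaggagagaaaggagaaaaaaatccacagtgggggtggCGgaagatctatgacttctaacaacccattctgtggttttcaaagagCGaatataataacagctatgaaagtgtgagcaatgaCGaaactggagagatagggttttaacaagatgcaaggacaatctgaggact
CD244: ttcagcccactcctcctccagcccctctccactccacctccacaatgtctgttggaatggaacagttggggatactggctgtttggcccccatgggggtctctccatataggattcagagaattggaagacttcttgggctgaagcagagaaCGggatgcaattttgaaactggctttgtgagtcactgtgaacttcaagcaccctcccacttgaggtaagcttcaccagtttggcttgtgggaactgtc

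These windows held 7 CpGs in KIR3DL2, 11 in KIR3DL1, 3 in CD160 and 1 in CD244, against a median of 11 over the 35116 promoters of the same table. The KIR3DL2 and KIR3DL1 windows were identical at 233 of 251 aligned positions (92.8%), including an unbroken run of 159 bases, and the KIR2DL4 window was 63.4% identical to that of KIR3DL2. The motif TGTGGT, the core bound by RUNX factors, was searched on both strands. It occurred 1 time in each of the KIR3DL2, KIR3DL1 and CD160 windows, 2 times in that of KIR2DL4, and in 11% of all promoter windows. KLRB1 had 0 CpGs upstream of its listed start, and KLRG1 had 24 upstream of the start shown and 0 upstream of the other. The table held windows for 8 of the 10 members; KLRD1 and KLRK1 are named only.

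Libraries held 16175077 to 32496676 counts, and no column was left unused. A member with 0 counts in a library could have had an expected count of up to 3 there, which is 0.0982 to 0.196 CPM (counts relative to the scaled library size). Of 9 T-cell markers, the median count reached 10 in 9 in PF382, 8 in H9, 7 in HH and 4 in TLOm1. CD3D, a chain of the T-cell receptor complex, ran from 0 to 18 counts in TLOm1. The summed level of 9 natural killer cell markers ran from 234 to 508 CPM in H9, 15.8 to 65.8 in PF382, 11.2 to 48.3 in HH and 4.66 to 20.7 in TLOm1. PRF1 (perforin) had 3450 to 5844 counts in H9, while GZMB, the granzyme that killer cells carry with it, was at 0 in all 8 H9 libraries, as was FCGR3A.

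Each line had its own set of killer cell receptors, as the map of raw counts shows. KIR3DL2 was carried by H9, CD160 by HH and, at a lower level, by TLOm1, and CD244 by H9, HH and PF382, while KLRG1 had at least 23 counts in all 32 libraries. KLRC1, KLRD1 and KLRK1, which encode the NKG2A, CD94 and NKG2D chains, had 2 counts or fewer in every library.

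**Figure D1:**
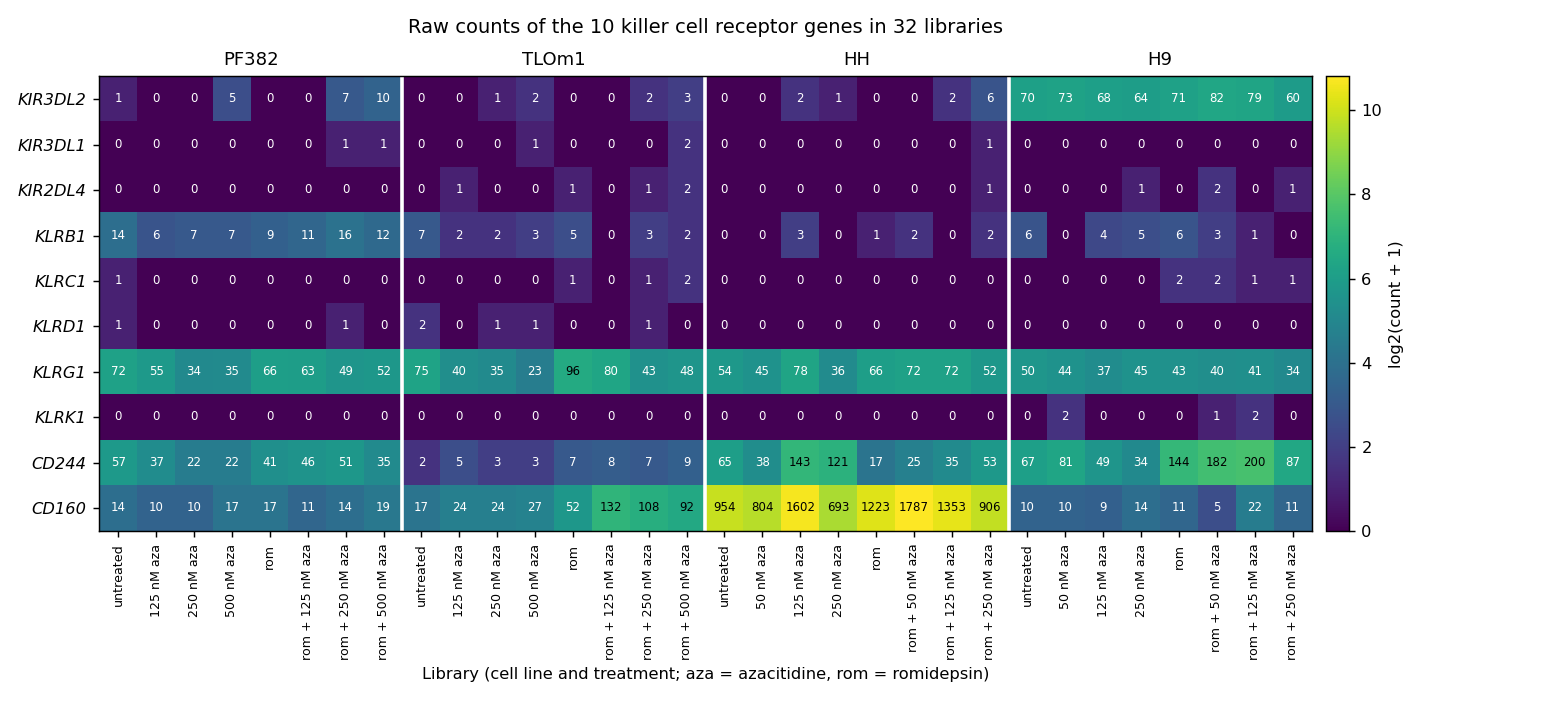
Raw counts of the 10 genes (rows) in the 32 libraries (columns, grouped by cell line, with romidepsin as rom and azacitidine as aza). Colour is log2(count + 1) and the printed number is the count, from 0 to 1787; H9 stands apart for KIR3DL2 and HH for CD160.

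KIR3DL2, an inhibitory receptor with 3 immunoglobulin domains that binds HLA class I, was at 60 to 82 counts in every H9 library (2.77 CPM ± 0.325, SD, n = 8 libraries of different treatment). In H9 the counts without romidepsin were 70, 73, 68 and 64 at 0, 50, 125 and 250 nM azacitidine, and with romidepsin they were 71, 82, 79 and 60. These series overlapped, and neither drug effect in H9 passed the test: the log2 change was 0.22 ± 0.24 (SE) with romidepsin and -0.10 ± 0.60 with azacitidine (edgeR adjusted p = 0.706 and 0.99). Over all doses, H9 cells given azacitidine had 426 counts in 6 libraries and those without had 141 in 2, a depth-adjusted ratio of 0.934 (95% counting interval 0.77 to 1.14). The summed natural killer cell markers were also highest in H9, although the median count reached 10 in 4 of the 9 there, against 5 in PF382 and TLOm1 and 4 in HH. PRF1, NKG7, GNLY and EOMES had at least 367 counts in each H9 library, while NCAM1 had 0 to 7 in H9 and 116 to 1398 in PF382, and NCR1 0 to 1 in H9 and 92 to 223 in HH. Their part in the KIR3DL2 level was not tested.

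The other lines had few KIR3DL2 reads, and nearly all of them came from the middle and highest azacitidine doses. In PF382 the counts without romidepsin were 1, 0, 0 and 5 at 0, 125, 250 and 500 nM, and with romidepsin 0, 0, 7 and 10. In TLOm1 they were 0, 0, 1 and 2 without and 0, 0, 2 and 3 with romidepsin at the same doses. In HH they were 0, 0, 2 and 1 without and 0, 0, 2 and 6 with romidepsin at 0, 50, 125 and 250 nM. Summed over these 3 lines, the lowest dose gave 0 counts with and without romidepsin, the middle dose 11 with and 3 without, and the highest dose 19 with and 8 without. Azacitidine at any dose gave 41 counts in 18 libraries, 11 of which had a count, against 1 count in 6 libraries without it. That is a depth-adjusted ratio of 13.0, with a 95% counting interval of 2.21 to 527 that covers counting error only and not the spread between cultures. This pool leaves out H9, the line where KIR3DL2 was high, so the interval is a description and no test. Over all 4 lines the ratio was 1.04 (0.858 to 1.26). PF382 gave 22 of the 41 counts, and the intervals of TLOm1 and HH alone began at 0.572 and 0.818.

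**Figure D2:**
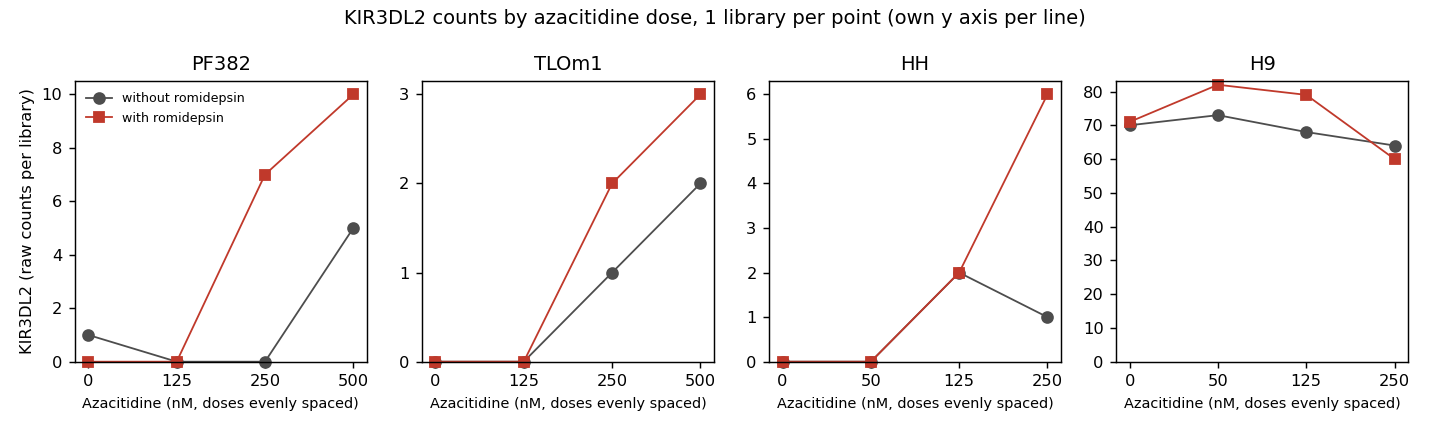
Raw KIR3DL2 counts (y axis, separate for each line) against azacitidine dose (x axis, nM, evenly spaced) in 4 lines, without (grey circles) and with romidepsin (red squares), 1 library per point. PF382, TLOm1 and HH reach 10, 3 and 6 counts at the highest dose with romidepsin, and H9 stays between 60 and 82.

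Across the 4 lines no KIR3DL2 difference passed the edgeR test. The log2 change of KIR3DL2 was 1.75 ± 0.78 for the combination at 250 nM against untreated cells (adjusted p = 0.11), 1.80 ± 0.80 for romidepsin added to azacitidine (adjusted p = 0.183) and 1.68 ± 0.78 for azacitidine added to romidepsin (adjusted p = 0.148). Per doubling of the azacitidine dose KIR3DL2 changed by 0.49 ± 0.25 (adjusted p = 0.168). Without PF382 the first 3 values were 1.00, 0.96 and 0.81 and the slope 0.22, and without HH they were 1.14, 1.35 and 1.07 and the slope 0.33 (edgeR adjusted p from 0.384 to 0.559). DESeq2 called KIR3DL2 higher for azacitidine added to romidepsin (adjusted p = 0.0479) and for the dose (adjusted p = 0.0159). The test that the azacitidine effect on KIR3DL2 was equal in the 4 lines gave an edgeR adjusted p of 0.286, so a difference between H9 and the other lines was not shown.

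KIR3DL1, an inhibitory receptor for HLA-B molecules of the Bw4 type, had 6 counts in all. They lay in 5 libraries that had each received azacitidine, as had 24 of all 32 libraries. The 6 counts were 1 each in PF382 under romidepsin with 250 and with 500 nM, 1 in TLOm1 at 500 nM, 2 in TLOm1 under romidepsin with 500 nM, and 1 in HH under romidepsin with 250 nM. H9, the line with KIR3DL2, had 0 KIR3DL1 counts in 8 libraries. KIR2DL4, a receptor that combines an inhibitory tail with an activating transmembrane segment, had 10 counts in 8 libraries, at most 2 in any. It had 5 counts in TLOm1, 4 in H9, 1 in HH and 0 in PF382, and 7 of the 8 libraries had received azacitidine. The depth-adjusted ratio with over without azacitidine was 2.84 for KIR2DL4 (95% counting interval 0.393 to 124). For KIR3DL1, with 0 counts without azacitidine, the interval began at 0.371. An excess with azacitidine was thus not shown for KIR3DL1 or KIR2DL4. These genes are close paralogs, so how the read counter, which is not given in the sources used here, split reads between them is uncertain.

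The CD94 and NKG2 receptors were near the limit of detection. KLRC1 (NKG2A) pairs with KLRD1 (CD94) to form an inhibitory receptor for HLA-E. KLRC1 had 11 counts in 8 libraries, of which H9 had 2, 2, 1 and 1 with romidepsin at 0, 50, 125 and 250 nM azacitidine and 0 in its 4 libraries without romidepsin. KLRD1 had 7 counts in 6 libraries of PF382 and TLOm1, and was at 0 in all 16 libraries of HH and H9. KLRK1 (NKG2D, the activating receptor for stress-induced ligands) had 5 counts in 3 libraries, all of H9 with azacitidine. Of the 8 H9 libraries 6 had received azacitidine, and the 95% counting interval of the ratio began at 0.283, so an excess was not shown. The read-through symbol KLRC4-KLRK1, which overlaps KLRK1, likewise had counts in H9 alone, 9 in 2 libraries without azacitidine and 6 in 6 with it, so the reads of these symbols cannot be told apart.

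KLRB1 (CD161), an inhibitory receptor for CLEC2D, was highest in PF382. Its PF382 counts were 14, 6, 7 and 7 without romidepsin at 0, 125, 250 and 500 nM and 9, 11, 16 and 12 with it, so the series overlapped. TLOm1 had 0 to 7 counts per library, H9 0 to 6 and HH 0 to 3. Over the 4 lines, libraries with azacitidine had 91 KLRB1 counts in 24 libraries and those without had 48 in 8, a depth-adjusted ratio of 0.598 (95% counting interval 0.417 to 0.867, counting error only). KLRB1 did not pass the edgeR test in any drug comparison. At 250 nM azacitidine against untreated its adjusted p was 0.472.

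KLRG1, an inhibitory receptor for cadherins found on differentiated killer cells, was lower with azacitidine alone. Untreated cells had 2.94 CPM in PF382, 3.20 in TLOm1, 2.36 in HH and 1.93 in H9, and cells given 250 nM azacitidine had 1.33, 1.53, 1.51 and 1.63. The 2 groups did not overlap, and KLRG1 was lower in 4 of 4 lines. The log2 change was -0.75 ± 0.22 (SE, n = 4 lines, edgeR adjusted p = 0.0396), and KLRG1 was the 1 member of 5 that passed in this comparison, where 5.99% of all genes did. The call was lost without PF382, TLOm1 or HH, with adjusted p values of 0.224, 0.16 and 0.115, and was kept without H9. It was also lost with no low-count filter (adjusted p = 0.057), in the fit of 16 libraries (0.128) and with no line term (1).

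Romidepsin shifted KLRG1 the other way in TLOm1. In that line KLRG1 was at 3.20, 1.76, 1.53 and 1.02 CPM without romidepsin at 0, 125, 250 and 500 nM azacitidine and at 4.57, 3.22, 2.13 and 2.46 CPM with it. It was higher with romidepsin at 4 of 4 doses, although the ranges overlapped, since the azacitidine libraries lay below the others in both series. The romidepsin effect in TLOm1 was 0.75 ± 0.17 on the log2 scale (edgeR adjusted p = 0.0018) and the azacitidine effect there was -0.98 ± 0.23 (adjusted p = 0.00642).

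In PF382 KLRG1 followed a like course that did not pass the test: 2.94, 1.99, 1.33 and 1.25 CPM without romidepsin and 2.83, 2.40, 1.89 and 1.87 with it at the same doses. The azacitidine effect there was -0.71 ± 0.24 (edgeR adjusted p = 0.0636) and the romidepsin effect 0.30 ± 0.17 (adjusted p = 0.178). HH had 2.36, 2.94, 2.55 and 1.51 CPM without and 3.18, 3.17, 3.57 and 2.42 with romidepsin at 0, 50, 125 and 250 nM. H9 varied least, from 1.46 to 1.93 CPM over its 8 libraries. The romidepsin effect on KLRG1 was 0.42 ± 0.16 in HH (adjusted p = 0.0599) and -0.01 ± 0.18 in H9 (adjusted p = 1), and the azacitidine effects were -0.04 ± 0.25 and -0.32 ± 0.25 (adjusted p = 0.973 and 0.515). The 4 line effects were not shown to differ for romidepsin (adjusted p = 0.0936) or for azacitidine (adjusted p = 0.188). Over the lines, azacitidine added to romidepsin changed KLRG1 by -0.63 ± 0.21 (adjusted p = 0.052) and the combination against untreated cells by -0.40 ± 0.21 (adjusted p = 0.184). Its slope per doubling of dose was -0.19 ± 0.08 (adjusted p = 0.0801).

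CD244 (2B4), a receptor of the SLAM family that binds CD48 and signals through SH2D1A, moved in opposite directions with romidepsin in different lines. In H9 it stood at 2.59, 2.79, 1.94 and 1.23 CPM without romidepsin at 0, 50, 125 and 250 nM azacitidine and at 6.35, 7.38, 7.16 and 3.85 CPM with it. In HH the order was the reverse, with 2.84, 2.49, 4.68 and 5.09 CPM without and 0.819, 1.10, 1.74 and 2.46 CPM with romidepsin at the same doses. In neither line did the libraries with and without romidepsin overlap. The ratio with over without romidepsin ran from 2.45 to 3.69 in H9 and from 0.289 to 0.483 in HH.

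CD244 rose with romidepsin in H9 by 1.54 ± 0.19 on the log2 scale (edgeR adjusted p = 3.54e-05) and changed by -1.33 ± 0.21 in HH (adjusted p = 7.09e-05). TLOm1 had few CD244 reads, with 2, 5, 3 and 3 counts without and 7, 8, 7 and 9 counts with romidepsin at 0, 125, 250 and 500 nM. These counts did not overlap, and the TLOm1 effect of 1.32 ± 0.46 passed the test (adjusted p = 0.031), but not without the highest azacitidine dose (adjusted p = 0.158). PF382 had 2.33, 1.34, 0.863 and 0.784 CPM without and 1.76, 1.75, 1.97 and 1.26 CPM with romidepsin. It was lower with romidepsin at 0 nM azacitidine and higher at 3 of 3 azacitidine doses, and the effect of 0.41 ± 0.22 did not pass (adjusted p = 0.169). The 4 line effects on CD244 differed (adjusted p = 1.81e-06), in a test passed by 33% of all genes. Averaged over the lines, romidepsin alone changed CD244 by 0.14 ± 0.60 (adjusted p = 1) and romidepsin added to azacitidine by 0.33 ± 0.61 (adjusted p = 0.81).

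**Figure D3:**
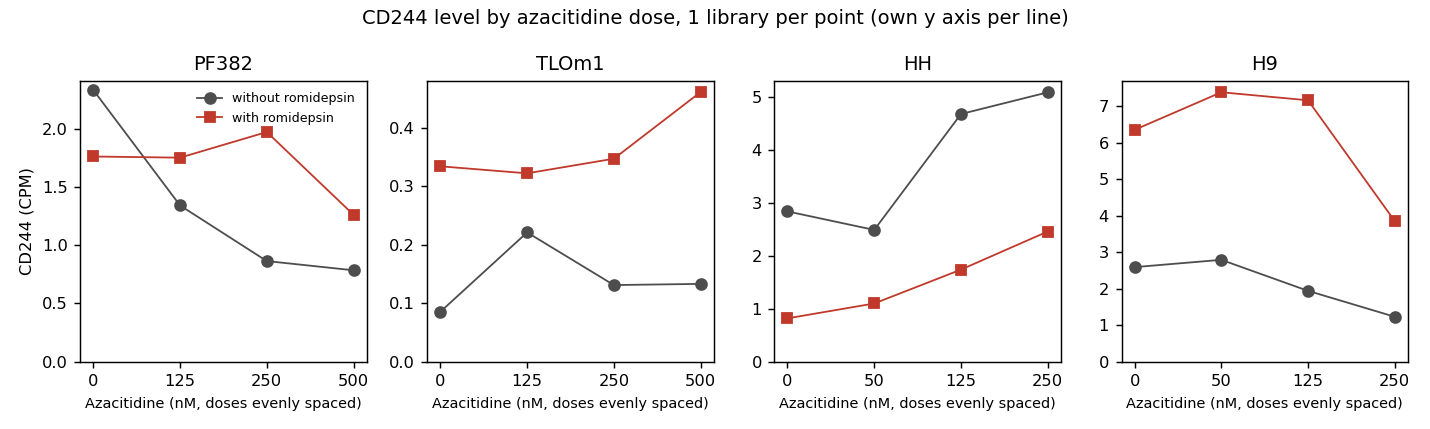
CD244 level in CPM (y axis, separate for each line) against azacitidine dose (x axis, nM, evenly spaced) without (grey circles) and with romidepsin (red squares), 1 library per point. The red points lie above the grey ones at every dose in TLOm1 and H9 and below them at every dose in HH.

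No azacitidine effect on CD244 passed the test in any of the 4 lines. It was -0.69 ± 0.35 in PF382 and 0.77 ± 0.37 in HH (edgeR adjusted p = 0.231 and 0.247), 0.39 ± 0.58 in TLOm1 and -0.21 ± 0.33 in H9 (adjusted p = 0.668 and 0.793). Whether the 4 effects were equal gave an adjusted p of 0.177. CD244 counts in HH were 143 and 121 at 125 and 250 nM azacitidine alone against 65 in untreated cells; HH at 125 nM was also the most deeply sequenced library, which the CPM values account for.

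CD160, a glycolipid-anchored receptor that binds TNFRSF14 (HVEM), rose with romidepsin in TLOm1 and HH. In TLOm1 it was at 0.726, 1.06, 1.05 and 1.20 CPM (17, 24, 24 and 27 counts) without romidepsin at 0, 125, 250 and 500 nM azacitidine. With romidepsin it was at 2.48, 5.31, 5.36 and 4.71 CPM (52, 132, 108 and 92 counts). All 4 libraries with romidepsin lay above all 4 without, by ratios of 3.41 to 5.12 at the same dose. The romidepsin effect in TLOm1 was 2.13 ± 0.15 on the log2 scale (edgeR adjusted p = 6.2e-09). Azacitidine also raised CD160 in TLOm1, by 0.89 ± 0.31 (adjusted p = 0.0463), a call lost when no low-count filter was used (adjusted p = 0.0558).

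HH carried CD160 at 41.6, 52.6, 52.4 and 29.2 CPM without romidepsin and at 59.0, 78.6, 67.1 and 42.1 CPM with it at 0, 50, 125 and 250 nM azacitidine. CD160 was higher with romidepsin at 4 of 4 doses in HH by ratios of 1.28 to 1.49, though the ranges overlapped, and both series were lowest at 250 nM. The romidepsin effect in HH was 0.49 ± 0.09 (edgeR adjusted p = 3.34e-04). PF382 had 10 to 19 CD160 counts and H9 5 to 22, and their effects of 0.29 ± 0.23 and 0.28 ± 0.26 did not pass (adjusted p = 0.437 and 0.666). The 4 romidepsin effects on CD160 differed (adjusted p = 4.67e-06). Azacitidine effects on CD160 in PF382, HH and H9 were -0.37 ± 0.39, 0.10 ± 0.22 and 0.05 ± 0.44 (adjusted p = 0.614, 0.865 and 1), and equality over the 4 lines gave an adjusted p of 0.238.

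**Figure D4:**
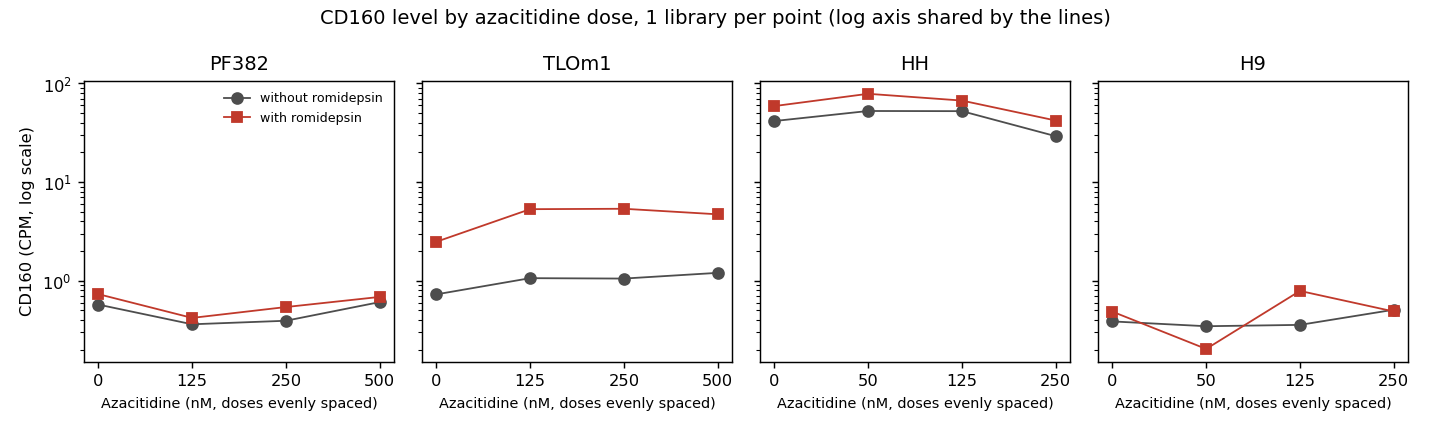
CD160 level in CPM (y axis, log scale shared by the lines) against azacitidine dose (x axis, nM, evenly spaced) without (grey circles) and with romidepsin (red squares), 1 library per point. HH lies between 29.2 and 78.6 CPM, TLOm1 between 0.726 and 5.36, and the TLOm1 series with romidepsin is above the other at every dose.

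Counted over the tested members, romidepsin changed 3 of 5 in TLOm1 (CD160, CD244 and KLRG1, each higher; 32.6% of all genes passed there), 2 of 5 in HH (CD160 higher and CD244 lower; 27.7%) and 1 of 5 in H9 (CD244 higher; 4.47%). In PF382 edgeR called 0 of 5 members, with 0 at an unadjusted p under 0.05 and 0 by DESeq2, while 30.7% of all genes passed. The test of equal romidepsin effects was passed by 2 of 5, CD244 and CD160, and by 33% of all genes. Azacitidine changed 2 of 5 members in TLOm1 (CD160 higher and KLRG1 lower; 18.7% of all genes). It changed 0 of 5 by edgeR in PF382 (8.33% of all genes; 1 at an unadjusted p under 0.05 and 1 by DESeq2, KLRG1), 0 in HH (5.87%; 1 unadjusted and 0 by DESeq2) and 0 in H9 (5.86%; 0 unadjusted and 0 by DESeq2). Equality of the azacitidine effects was rejected by edgeR for 0 of 5 members, with 0 at an unadjusted p under 0.05, and for 10.7% of all genes.

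**Figure D5:**
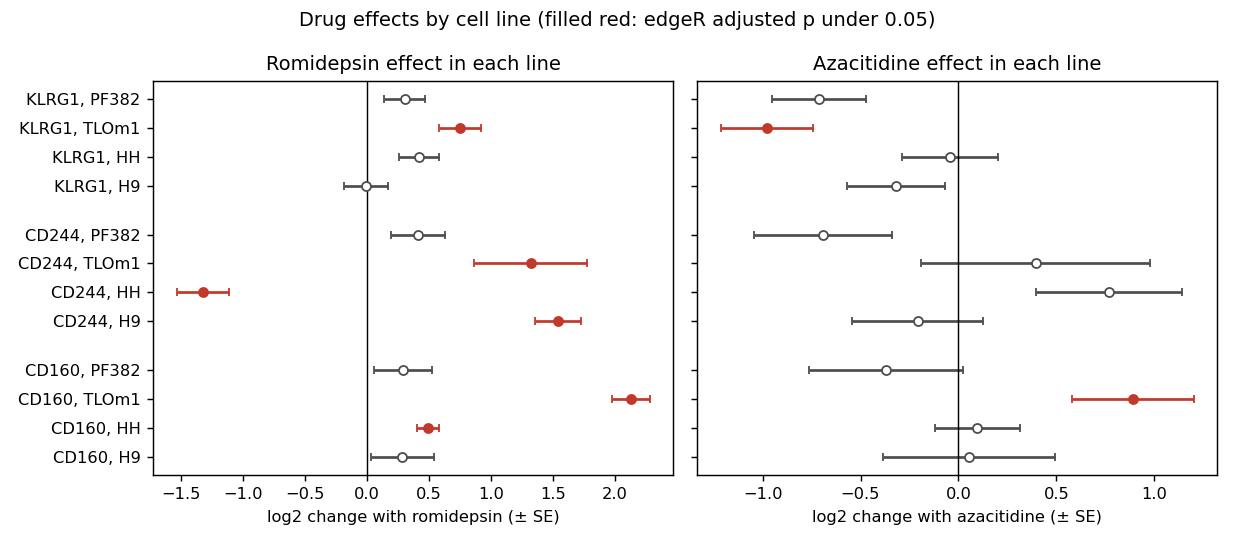
Log2 change (x axis, with SE) of KLRG1, CD244 and CD160 (y axis, by cell line) with romidepsin (left) and with azacitidine (right); filled red points have an edgeR adjusted p under 0.05. The romidepsin effect on CD244 is -1.33 in HH and 1.54 in H9, and that on CD160 is 2.13 in TLOm1.

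Averaged over the 4 lines, few comparisons moved a member past the test. Romidepsin alone changed 0 of 5 by edgeR (0 at an unadjusted p under 0.05, 0 by DESeq2), where 0.0169% of all genes passed. The CD160 change with romidepsin alone was 0.70 ± 0.43 (adjusted p = 0.938), with the combination at 250 nM it was 0.91 ± 0.43 (adjusted p = 0.137), and with romidepsin added to azacitidine 1.09 ± 0.44 (adjusted p = 0.146). Without TLOm1 these CD160 changes were 0.45, 0.07 and 0.42. The combination against untreated cells changed 0 of 5 members (2 unadjusted, 0 by DESeq2), while 23% of all genes passed. Romidepsin added to azacitidine changed 0 of 5 (2 unadjusted, 0 by DESeq2; 5.67% of all genes), azacitidine added to romidepsin 0 of 5 (2 unadjusted, 2 by DESeq2, KIR3DL2 and KLRG1; 14.1%), and the dose slope 0 of 5 (1 unadjusted, 1 by DESeq2, KIR3DL2; 19%). Departure from additivity, tested as an interaction on the log2 scale, was found for 0 of 5 (0 unadjusted, 0 by DESeq2) and for 0% of all genes. These comparisons share untreated, azacitidine or romidepsin libraries with one another. The median log2 change of the 5 members was 0.14 for romidepsin alone, -0.18 for azacitidine at 250 nM and 0.17 for the combination, against 0.01, 0.03 and 0.04 over all genes tested.

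Levels by line were ordered as follows. The 8 libraries of a line differ in treatment and are not replicates of the line, so these p-values concern these libraries only. CD160 was highest in HH (52.8 CPM ± 15.6, SD, n = 8), then TLOm1 (2.74 ± 2.05), PF382 (0.538 ± 0.137) and H9 (0.445 ± 0.171). The model of levels took each treatment effect as equal in the 4 lines, which the romidepsin effects on CD160 and CD244 were not. HH exceeded TLOm1 by 4.48 ± 0.30 on the log2 scale (edgeR adjusted p = 4.88e-12), and TLOm1 exceeded PF382 by 2.16 ± 0.32 (adjusted p = 1.9e-06). The TLOm1 level includes its libraries raised by romidepsin. Untreated cells had 0.726 CPM (17 counts) in TLOm1 and 0.572 CPM (14 counts) in PF382. PF382 and H9 were not separated beyond their spread (-0.24 ± 0.41 for H9 against PF382, adjusted p = 0.601).

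CD244 was at 4.16 CPM ± 2.45 in H9, 2.65 ± 1.55 in HH, 1.51 ± 0.540 in PF382 and 0.254 ± 0.132 in TLOm1 (SD, n = 8). H9 and HH were not separated by the test (0.52 ± 0.42, edgeR adjusted p = 0.266), nor did HH and PF382 (0.83 ± 0.44, adjusted p = 0.0889), while TLOm1 was below PF382 by a log2 difference of -2.57 ± 0.51 (adjusted p = 7.14e-05). KLRG1 was at 2.71 CPM ± 0.643 in HH, 2.49 ± 1.14 in TLOm1, 2.06 ± 0.627 in PF382 and 1.63 ± 0.187 in H9. HH and TLOm1 were not separated (0.04 ± 0.16, adjusted p = 0.859), nor did TLOm1 and PF382 (0.22 ± 0.15, adjusted p = 0.192), and H9 was below PF382 by -0.45 ± 0.17 (adjusted p = 0.0171). Most genes differ between lines: 81.3% of all genes tested passed for TLOm1 against PF382, 79.1% for HH against PF382, 75.7% for H9 against PF382, 71.5% for HH against TLOm1, 78.7% for H9 against TLOm1 and 77.8% for H9 against HH.

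The genes whose level was most like that of a member over the 32 libraries were CPT1A for KIR3DL2 (Spearman's rho 0.91), CDH4 for KLRB1 (0.83), CCNH for KLRG1 (0.799), PBX4 for CD244 (0.885) and NR2F1 for CD160 (0.934). With line means removed, the closest by Pearson's r were DPPA4 for KIR3DL2 (0.868), MIR1260B for KLRB1 (0.628), TTC33 for KLRG1 (0.903), TICAM1 for CD244 (0.751) and SYT14 for CD160 (0.832). These are descriptions over libraries that share 4 lines and a set of treatments, and each is the highest of 17801 genes.

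Of 19 ligand genes, 18 were tested, and at 250 nM azacitidine edgeR called 1 higher and 2 lower, the partners of CD244 and CD160, where 5.99% of all genes passed. The 1 called higher was RAET1E, a ligand of NKG2D (adjusted p = 0.018; lost with DESeq2 and without PF382, TLOm1 or H9). CD48, the ligand of CD244, changed by -0.87 ± 0.22 (adjusted p = 0.021) and TNFRSF14, the ligand of CD160, by -0.58 ± 0.15 (adjusted p = 0.0239). The CD48 call was lost without PF382, HH or H9 and the TNFRSF14 call without PF382, TLOm1 or H9. With the combination 4 ligands rose and 1 fell, 5 of 18, against 23% of all genes. RAET1E (edgeR adjusted p = 6.78e-04) and HLA-B (adjusted p = 0.0264) were among those that rose, and TNFRSF14 was the 1 that fell. TNFRSF14 changed by -1.07 ± 0.16 (adjusted p = 6.92e-05), a call kept when each line was left out. TNFRSF14 counts in untreated cells and under romidepsin with 250 nM azacitidine were 208 and 144 in PF382, 1911 and 817 in TLOm1, 1574 and 592 in HH, and 1783 and 634 in H9.  The median log2 change of the 18 ligands was 0.16 with azacitidine and 0.36 with the combination.

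Among the adaptors, TYROBP, the chain through which activating KIR and CD94 receptors signal, gained reads with azacitidine in 4 of 4 lines. Its counts at 0 nM and the 3 rising doses without romidepsin were 2, 9, 11 and 6 in PF382, 0, 2, 3 and 7 in TLOm1, 1, 2, 6 and 6 in HH, and 0, 3, 38 and 53 in H9. With romidepsin they were 4, 19, 30 and 23 in PF382, 0, 1, 17 and 37 in TLOm1, 4, 4, 27 and 15 in HH, and 2, 7, 26 and 43 in H9. The highest TYROBP count without azacitidine was 4, and the lowest doses overlapped with it. Summed over lines, TYROBP had 395 counts in 24 libraries with azacitidine and 13 in 8 without, a depth-adjusted ratio of 9.58 (95% counting interval 5.54 to 18.2). It rose with azacitidine at 250 nM (edgeR adjusted p = 0.0198, lost without HH or without H9) and with the combination (adjusted p = 7.16e-04, kept when each line was left out). Of the 14 adaptor and signalling genes tested of 15, TYROBP was the 1 called higher in both comparisons (5.99% and 23% of all genes passed), and CD247, the zeta chain, fell with the combination (-0.60 ± 0.18, adjusted p = 0.0209; lost without HH or without H9). HCST, the adaptor of NKG2D, ran from 694 to 1199 counts in H9, 386 to 838 in HH, 123 to 191 in PF382 and 8 to 38 in TLOm1.

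Of 23 other killer cell receptors, 15 were tested, and azacitidine at 250 nM changed 0 by edgeR (5.99% of all genes) while the combination raised 4 and lowered 2 (23%). Among those raised were KIR3DX1 (log2 change 4.457 ± 0.998, edgeR adjusted p = 0.00434) and KLRF1 (3.313 ± 1.149, adjusted p = 0.0404). KIR3DX1 reads were mostly from TLOm1, with 35 counts in 6 libraries with azacitidine and 2 in 2 without. In H9, KLRC4 and KIR2DS4 had fewer reads at higher azacitidine doses. KLRC4 counts in H9 were 20, 8, 4 and 0 without and 14, 12, 8 and 0 with romidepsin at 0, 50, 125 and 250 nM azacitidine. KIR2DS4, an activating receptor that signals through TYROBP, had 19, 15, 10 and 6 counts without and 15, 13, 10 and 2 with romidepsin. The H9 depth-adjusted ratio of libraries with over without azacitidine was 0.291 for KLRC4 (95% counting interval 0.174 to 0.486), 0.509 for KIR2DS4 (0.327 to 0.804) and, on the other side of 1, 1.24 for KLRC3 (0.584 to 2.92). KIR2DS4 and KLRC3 were chosen after their values were seen, and KLRC4 was among those called lower with the combination (edgeR adjusted p = 0.0365), a call lost without TLOm1 or HH and with DESeq2 (adjusted p = 0.906). KLRC4 had 0 counts in PF382 and HH and at most 1 in any TLOm1 library, so its call rests on H9. All of these genes were picked on the same libraries, so their intervals are descriptions and no test.

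Transcription factors of killer cells were all tested, and the combination raised 6 of 13 and lowered 1, where 23% of all genes passed. TBX21 (T-bet), a driver of killer cell differentiation, went from 4 to 90 counts in PF382, from 0 to 20 in TLOm1, from 0 to 49 in HH and from 16 to 111 in H9 between untreated cells and romidepsin with 250 nM azacitidine. It was higher in 4 of 4 lines (edgeR adjusted p = 5.21e-04) and stayed called when each line was left out. ID2, an inhibitor of E proteins that natural killer cells need, changed by 1.82 ± 0.41 (adjusted p = 0.0034). Azacitidine alone at 250 nM changed 1 of 13 (5.99% of all genes), BCL11B, a factor of T-cell identity, by -0.47 ± 0.12 (adjusted p = 0.0196), lost without TLOm1 or without H9.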

How the data were processed

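RNA was sequenced on an Illumina NextSeq 500 from stranded TruSeq libraries, per the labels, which name both poly(A) RNA and depletion of ribosomal RNA. The authors deposited 1 table of raw, unnormalized counts for each library, with gene symbols as row names. STAR, DESeq2, limma and the build GRCh37.p2 are named per the submitters' processing notes, without versions. Which program counted the reads, on which annotation and strand, is not given in the sources used here. Reads of paralogs (the KIR and KLRC genes) may have been split or dropped. Upstream sequences came from RefSeq on GRCh38.p14 and were matched by symbol.

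The members and gene lists were chosen with earlier results of these data known. All members are named. List genes were drawn from those called with the largest changes, up to 3 per list and comparison, and not every such gene is named. HCST, KIR2DS4, KLRC3 and the named cell markers were picked after their values were seen. The lists were ligands, adaptors, other killer cell receptors, transcription factors and markers of T, natural killer, B and myeloid cells. Summed B-cell markers reached 95.8 CPM in H9, 29.7 in PF382, 6.46 in HH and 1.84 in TLOm1, and myeloid markers reached 12.5 CPM at most.

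Counts were fitted with edgeR 4.0.16 in R 4.3.3 by the quasi-likelihood F test on all 32 libraries and all 17801 genes that passed filterByExpr (minimum count 10, minimum total 15), with TMM scaling and Benjamini-Hochberg adjustment. The threshold was an adjusted p of 0.05. Every adjusted p is from edgeR unless DESeq2 (1.42.0) is named. Treatment groups were compared in a model with the line as a block (19 residual degrees of freedom). Romidepsin was tested in each line with 4 libraries against 4 of equal azacitidine dose (residual degrees of freedom 12), and azacitidine with 6 against 2. In HH the romidepsin doses of that match differ as labelled. SE is the log2 change divided by the square root of F. Lines pair the libraries, since they are the origin of the cells: 60 of 60 same-line pairs correlated after group means were removed, at 0.86 to 0.973. Intervals are exact at 95%, and with floors of 3 counts they cover counting error only, as reads carry no molecular identifiers. Alternatives were another scaling, no filter, DESeq2, leaving out each line or the highest doses, no line term, and 16 libraries only.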

Additional observations from a re-analysis of the deposited data

Results flagged for a closer look

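A screen for a library far from the rest covered 41 groups of libraries (a gene within a treatment or within a line), each with a library of at least 10 counts. It flagged 13 groups, all of them within a treatment, where 1 line stood far from the other 3. No group within a line was flagged, so the share among the groups within a treatment was higher than 13 of 41. Chance flags about 1 in 20 independent groups, and these are not independent: 12 of the 13 repeat H9 for KIR3DL2 or HH for CD160 over 6 treatments. KIR3DL2 and KLRB1 groups entered this screen, as they did the filter on low counts, through the line that then stands apart, so these are descriptions and no test. H9 was far above the other lines for KIR3DL2 in 6 treatments. Its level was 2.7 CPM untreated, 3.13 with romidepsin, 2.69 and 2.32 with 125 and 250 nM azacitidine, and 2.83 and 2.66 with romidepsin and those doses. HH was far above the other lines for CD160 in the same 6 treatments. Its level was 41.6 CPM untreated, 59.0 with romidepsin, 52.4 and 29.2 with 125 and 250 nM azacitidine, and 67.1 and 42.1 with romidepsin and those doses. PF382 was far above the others for KLRB1 under romidepsin with 125 nM azacitidine, at 0.419 CPM, which was 11 counts against 1 in H9 and 0 in HH and TLOm1.

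The romidepsin effect differed among the 4 lines for CD244 (edgeR adjusted p = 1.81e-06), with a log2 change of 1.54 in H9, 1.32 in TLOm1 and -1.33 in HH. It also differed for CD160 (adjusted p = 4.67e-06), with 2.13 in TLOm1 and 0.49 in HH. The test of equal effects was passed by 33% of all genes.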

How the results depend on the processing

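Counts of members called were within 1.5 times those reported in 105 cases and moved in 13. For azacitidine at 250 nM against untreated, the count of 1 (KLRG1) became 0 with no low-count filter, 0 with no replicate block (the pairing by line left out, which also ended the call of every list gene named) and 0 in the fit of 16 libraries, and ran from 0 to 1 when each line was left out. The dose slope gave 1 with no filter (KIR3DL1), 1 with DESeq2 (KIR3DL2) and 0 to 1 when each line was left out (KLRG1 without H9). DESeq2 gave 2 for azacitidine added to romidepsin and 1 for azacitidine in PF382. For azacitidine in TLOm1 the count was 1 with no filter, and equality of the azacitidine effects gave 1 without the highest dose (CD160).

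The single log2 changes were each refitted under several settings, and a case is 1 change under 1 setting. The direction and call were kept in 285 cases, and the call was lost in 43 and gained in 5. The sign changed in 6 cases, none of them past the threshold. CD244 with romidepsin alone ran from -0.424 to 0.6 when each line was left out. Without the highest azacitidine dose KLRG1 became 0.023 for romidepsin in H9 and 0.144 for azacitidine in HH, and in H9 azacitidine gave -0.022 for CD160 and 0.052 for CD244. The cause of these changes was not tested. Depth limits KIR3DL1, KIR2DL4, KLRC1, KLRD1 and KLRK1 to counts, with no test in the fits reported; with no filter KIR3DL1, at 6 counts, was the dose slope call above.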
